A study of Mus musculus with 2 samples.

Results

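The genes described here are the ephrin-B ligands Efnb1 and Efnb2 and the EphB receptors Ephb2, Ephb3 and Ephb4, measured in single-cell RNA sequencing of whole mouse hearts at E11.5, midgestation. They were taken by name, through their Ensembl identifiers, and are 5 of the 22401 features counted. Efnb2 was the member that differed between the genotypes in the most places. It was lower in the mutant library in every class of heart cell examined, and its highest level, in endothelial-like cells, was 135 CPM in the control and 69.2 CPM in the mutant (UMIs divided by all UMIs of the class and scaled to CPM). Ephb4, the receptor with its highest level in the same cells, was 62.1 and 51.9 CPM there. Ephb3 was at 36 UMIs in control and 3 UMIs in mutant endothelial-like cells, whereas in cardiomyocyte-like cells it was at 6.11 and 9.48 CPM, a direction that turned under a stricter filter on cells. No member reached a 2-fold difference on the scale used, log2 of CPM plus 5, in any of the main classes. Adding 5 CPM damps low genes, and Ephb3 passed 2-fold in endothelial-like cells under some of the alternatives given below. As plain ratios of CPM, control over mutant was 16.6 for Ephb3 and 3.96 for Ephb2 in endothelial-like cells. For Efnb2 it was 2.04 in epicardial-like cells and 2.23 in an unnamed cluster led by Rspo3.

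The study asked what the loss of HAND2, a basic helix-loop-helix transcription factor, changes in the endocardium, which lines the heart. Each group was 1 library, so no difference below has a replicate check and none has a p-value. The control embryos carried 1 floxed Hand2 allele with a wild-type one (Hand2fx/+), the R26RmTmG reporter over a wild-type allele, and no Cre. The H2CKO embryos carried Nfatc1Cre over wild type, Hand2fx/fx and the same reporter genotype. Both groups therefore share a floxed Hand2 allele and the reporter, which makes Tomato before and GFP after Cre acts, and the presence of Cre and the loss of Hand2 cannot be told apart. Nfatc1Cre acts in the endocardium, and cushion mesenchyme that descends from it inherits the deletion. Cre status was read from fluorescence, and embryos waited on ice for some 3 hours before dissociation. The labels do not give how many embryos, or of which sex, entered each library.

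Ephrins and Eph receptors signal between touching cells. Ephrin-B ligands span the membrane, so binding starts a forward signal in the cell with the EphB receptor tyrosine kinase and a reverse signal in the cell with the ligand. In the vasculature ephrin-B2 marks arterial and EphB4 venous endothelium, and mouse embryos that lack either die at midgestation with defective vessels and a poorly trabeculated heart. Ephrin-B1, EphB2 and EphB3 are widely used at tissue boundaries, and EphB2 and EphB3 can replace each other in part.

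Filters left 9251 cells of the control, with a median of 16439 UMIs, and 11413 of H2CKO, with a median of 13396. The libraries had 57 barcodes in common, 30 of them among the kept cells. Clusters were named from marker lists, and endothelial-like cells formed 1 cluster of 400 control and 746 H2CKO cells, at median depths of 13013.5 and 10268.5 UMIs. Of 24 endothelial markers, 23 were each found in at least 10% of the control cells of that cluster and 22 in H2CKO. Mesenchymal-like cells numbered 1657 and 1071, epicardial-like cells 849 and 304, and cardiomyocyte-like cells 2929 and 3522. A cluster of 590 and 721 cells led by Rspo3, Clu, Cox4i2 and Sema3c stayed unnamed. Hand2 itself was 222 CPM in control and 10.99 CPM in H2CKO endothelial-like cells, and GFP was 16.8 and 1180.1 CPM there. Both libraries held Y-linked transcripts (Ddx3y at 40.3 and 23.4 CPM), and 4 of the 5 erythroid-like clusters came almost wholly from 1 library each, such as 1 of 39 control and 2150 H2CKO cells, while the other held 309 and 1056. The median ratio of all tested genes was itself below 0 in each class (log2 −0.27 in endothelial-like, −0.23 in mesenchymal-like, −0.21 in epicardial-like and −0.16 in cardiomyocyte-like cells). Across genes, longer genes had lower ratios (Spearman correlation −0.495 in endothelial-like cells over 6416 genes, which are not independent replicates).

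The 5 genes lie on 5 chromosomes in GRCm38.p6. Efnb1 is at chrX:99136061-99149022 (plus strand), Efnb2 at chr8:8617235-8661242 (minus), Ephb2 at chr4:136647536-136836326 (minus), Ephb3 at chr16:21204620-21223309 (plus) and Ephb4 at chr5:137350109-137374522 (plus). Efnb2 overlaps 3 transcripts annotated on its own strand (E230020D15Rik, Gm45074 and Gm45073), so reads there may have been assigned between them, and Ephb4 overlaps Zan on the other strand. RefSeq promoters of GRCm38.p6 (from 250 bases before to 50 after the start) are shown for the ligand and the receptor with the lowest ratios in endothelial-like cells, Efnb2 and Ephb3, and for Ephb4, the receptor gene known to pair with Efnb2. They are at chr8:8661193-8661492 (minus strand), chr16:21204545-21204844 (plus) and chr5:137349859-137350158 (plus), read along the gene's strand. Capitals mark the E-box CANNTG, the general form of site for basic helix-loop-helix factors.
Efnb2: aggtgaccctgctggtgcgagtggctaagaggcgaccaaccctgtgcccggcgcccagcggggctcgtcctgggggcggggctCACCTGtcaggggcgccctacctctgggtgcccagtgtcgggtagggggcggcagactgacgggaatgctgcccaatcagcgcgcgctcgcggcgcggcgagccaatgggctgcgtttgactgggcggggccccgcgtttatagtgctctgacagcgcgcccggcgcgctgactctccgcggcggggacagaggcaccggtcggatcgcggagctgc
Ephb3: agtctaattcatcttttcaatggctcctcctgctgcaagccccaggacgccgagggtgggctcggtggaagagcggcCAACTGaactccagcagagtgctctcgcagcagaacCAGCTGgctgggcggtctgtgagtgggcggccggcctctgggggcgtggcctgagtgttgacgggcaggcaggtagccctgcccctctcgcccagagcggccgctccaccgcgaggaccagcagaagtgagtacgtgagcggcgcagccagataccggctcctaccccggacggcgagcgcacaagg
Ephb4: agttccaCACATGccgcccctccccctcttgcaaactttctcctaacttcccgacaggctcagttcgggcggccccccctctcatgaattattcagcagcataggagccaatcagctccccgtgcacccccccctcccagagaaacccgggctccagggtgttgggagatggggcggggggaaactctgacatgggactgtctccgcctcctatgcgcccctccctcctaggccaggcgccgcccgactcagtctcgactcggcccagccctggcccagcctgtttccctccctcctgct
On both strands, the window held 1 E-box for Efnb2 (CACCTG), 2 for Ephb3 (CAACTG and CAGCTG), 1 for Ephb4 (CACATG), 1 for Ephb2 (CAGGTG) and 0 for Efnb1. Over 32851 RefSeq promoters of the same length, 72.3% held at least 1. The form CATCTG, 1 kind of E-box, was in 17.2% of all promoters and in 0 of the 5, and TGGGAA, the core of sites for the Notch effector RBPJ, was in 25.6% of all and only in Efnb1 among the 5 (2 times). These matches describe letters in these windows and nothing about binding.

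Efnb2 encodes ephrin-B2, the transmembrane ligand. In the control it was at 135 CPM in endothelial-like cells (95% counting interval 127 to 144, 924 UMIs), 29.3 in epicardial-like cells, 28.7 in the cluster led by Rspo3, 21.5 in cardiomyocyte-like and 20.3 in mesenchymal-like cells. White blood cell-like and erythroid-like cells had 4.47 and 0.72 CPM. Endothelial-like cells stood above all others in both libraries, epicardial-like cells and the cluster led by Rspo3 had overlapping intervals, and so did cardiomyocyte-like and mesenchymal-like cells. Erythroid-like cells should lack the gene, and their level is taken as that of free RNA.

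In H2CKO, endothelial-like cells had 655 Efnb2 UMIs, or 69.2 CPM (64.0 to 74.7). The control level was 1.96-fold that of H2CKO (1.77 to 2.16), a log2 ratio of −0.92. Mesenchymal-like cells had 20.3 CPM in the control and 11.8 in H2CKO (log2 ratio −0.59), epicardial-like cells 29.3 and 14.3 (−0.83), cardiomyocyte-like cells 21.5 and 12.7 (−0.58), and the cluster led by Rspo3 28.7 and 12.9 (−0.91). The counting intervals of the libraries did not overlap in any of these 5 groups of cells, and Efnb2 was the only member below the median of all tested genes in each. The endothelial-like ratio minus the median ratio of mesenchymal-, epicardial- and cardiomyocyte-like cells was −0.33, and 13.9% of the 6525 genes tested in endothelial-like cells had a lower value of that difference. With the trend on gene length taken out, the log2 ratio was −0.45 in endothelial-like, −0.12 in mesenchymal-like, −0.34 in epicardial-like and −0.27 in cardiomyocyte-like cells. The part of gene length in the result was not tested further. Markers of other cells also differed in the endothelial-like cells. The 16 mesenchymal markers summed to 1372 CPM in the control and 376 in H2CKO, with 0 of them at 0 UMIs, and the 13 erythroid markers to 23589 and 43948 CPM. In mesenchymal-like cells the mesenchymal markers summed to 5392 and 3091 CPM and the erythroid ones to 13428 and 53945 CPM, and in epicardial-like cells the 12 epicardial markers summed to 2998 and 2282 CPM and the erythroid ones to 15535 and 45313 CPM. In cardiomyocyte-like cells the erythroid markers summed to 15877 and 22885 CPM and the 19 cardiomyocyte markers to 71390 and 76683 CPM. The mesenchymal markers there summed to 212 and 83.7 CPM and the 24 endothelial ones to 61.1 and 39.8 CPM. At a finer clustering, the cluster led by Rspo3, Masp1 and Sema3c had Hapln1 at 81.7 CPM in the control and 8.10 in H2CKO, and Tcf21 at 41.4 and 9.88 CPM. There 6 endocardial genes summed to 30.3 and 9.10 CPM and 6 ventricular genes to 12936 and 17197 CPM. The part of these shifts in the result was not tested.

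**Figure D1:**
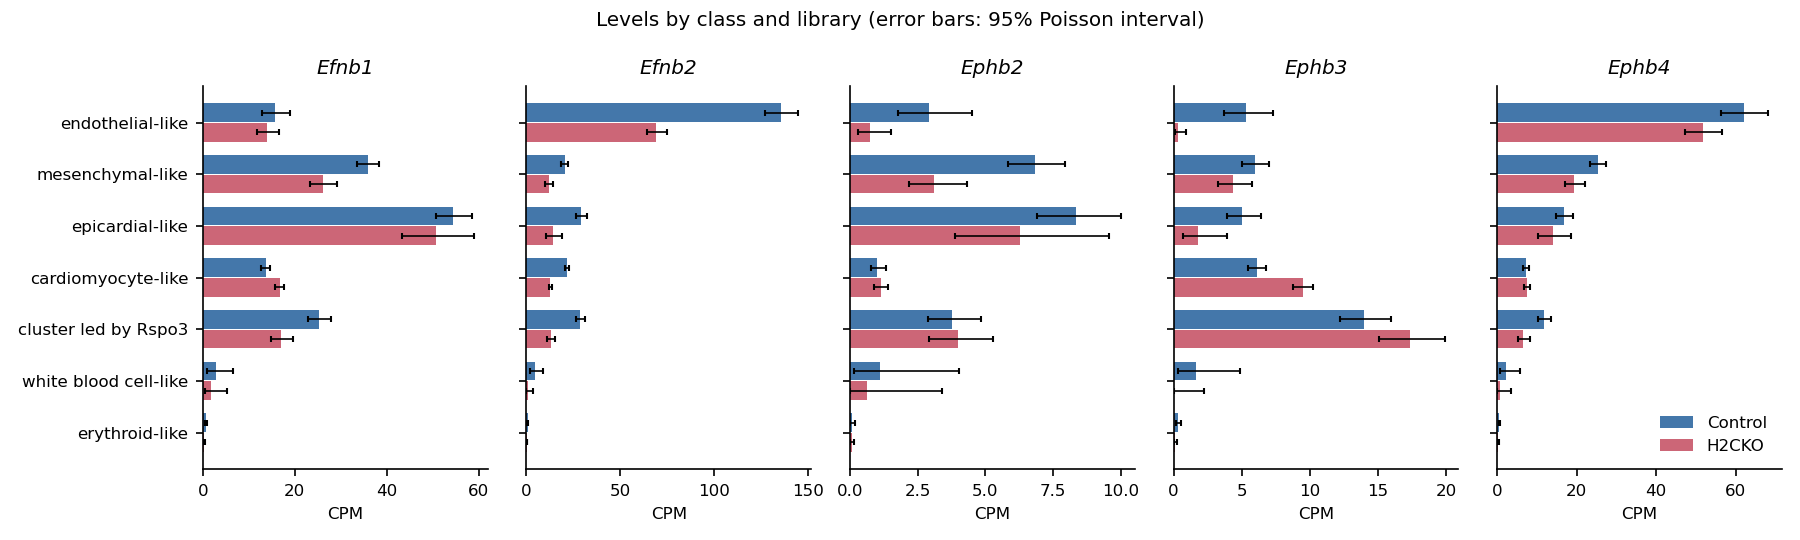
CPM of each member (horizontal axes, 1 scale per gene) in 7 groups of cells, with control bars in blue, H2CKO bars in red and 95% Poisson intervals. Efnb2 and Ephb4 have their longest bars in endothelial-like cells, Efnb1 in epicardial-like cells and Ephb3 in the cluster led by Rspo3, and the Efnb2 bar of H2CKO is the shorter one in all 7 groups.

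At a finer clustering the endothelial-like cells split into a cluster led by Emcn, Tm4sf1 and Plvap (123 control and 481 H2CKO cells) and another led by Stmn2, Wnt4, Klf2 and Nts (278 and 265 cells). The mix of the 2 therefore differed between the libraries. Efnb2 was at 138 CPM (123 to 156) and 72.8 CPM (66.3 to 79.8) in the Emcn-led cluster, which gave a log2 ratio of −0.88. In the Stmn2-led cluster it was at 134 CPM (124 to 145) and 62.2 CPM (53.9 to 71.5), and its log2 ratio of −1.05 was past 2-fold, as were those of 2.99% of the 6597 genes tested there in that direction. Control levels in the 2 clusters had overlapping intervals, and the ratio within each was about as large as over both together. The make-up of each cluster also differed between the libraries. In the Emcn-led cluster 6 endocardial genes summed to 1160 CPM in the control and 409 in H2CKO, and 8 vascular endothelial genes to 254 and 386 CPM. In the Stmn2-led cluster the sums were 617 and 359 CPM and 227 and 182 CPM. The part of these shifts in the Efnb2 ratios was not tested. Finer clusters outside the endothelium had Efnb2 at 31.4 CPM or less in the control.

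H2CKO cells were also split by whether they held a GFP UMI, which is no sure sign that Cre had acted. A GFP UMI was found in 70.2% of H2CKO endothelial-like cells and in 22.5% of those of the control, which has no Cre (67.2% and 7.94% after thinning each cell to 5000 UMIs). In mesenchymal-like cells the shares were 37.6% and 17.7% (33.9% and 5.94% after thinning). Efnb2 was at 66.9 CPM (61.0 to 73.2) in 524 endothelial-like cells with GFP and at 75.9 CPM (65.3 to 87.7) in 222 without, a ratio of 0.88 (0.74 to 1.05). Both values lay under the 135 CPM of the control. Cells without a GFP UMI had 19.9 CPM of Hand2, against 7.94 in cells with GFP and 222 in the control, so low Hand2 was common to both. In the Stmn2-led cluster the 233 cells with GFP had 58.2 CPM of Efnb2 and the 32 without had 114 CPM (74.5 to 167), a ratio of 0.51 (0.34 to 0.80) that rests on 26 UMIs in the cells without GFP. In the Emcn-led cluster the same ratio was 1.02 (0.84 to 1.24). Over H2CKO mesenchymal-like cells it was 1.21 (0.84 to 1.73). It was 0.90 (0.57 to 1.43) in the finer mesenchymal cluster led by Car3. In the one led by Inhba it was 2.34 (1.19 to 4.36), at 22.0 and 9.42 CPM, with 15 UMIs in 54 cells with GFP.

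**Figure D2:**
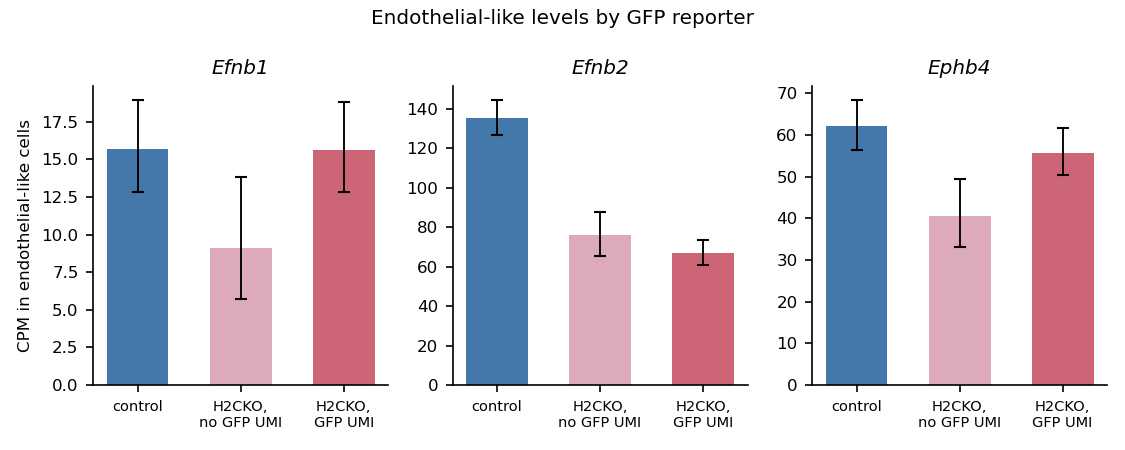
CPM (vertical axes, 1 scale per gene) of Efnb1, Efnb2 and Ephb4 in endothelial-like cells of the control and of H2CKO with or without a GFP UMI, with 95% Poisson intervals. Both H2CKO bars of Efnb2 (75.9 and 66.9 CPM) are under the control bar (135 CPM), while Ephb4 has an interval that overlaps that of the control with GFP (55.7 CPM) and does not without it (40.6 CPM).

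An Efnb2 UMI was found in 75.0% of control endothelial-like cells (70.5 to 79.2) and in 48.5% of H2CKO cells (44.9 to 52.2). With each cell thinned to 5000 UMIs the shares were 45.0% (39.9 to 50.1, 378 cells) and 28.1% (24.8 to 31.6, 690 cells), after 22 control and 56 H2CKO cells were left out as too shallow. Thinned erythroid-like cells had 0.38% and 0.063%, at unthinned median depths of 18380 and 13220 UMIs. The share thus differed at equal depth and was far above that in cells that should lack the gene.

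Efnb1 encodes ephrin-B1, a second ligand, and is X-linked. Its order over the classes differed from that of Efnb2. It was at 54.5 CPM (50.7 to 58.5) in control epicardial-like cells, 35.96 in mesenchymal-like cells, 25.2 in the cluster led by Rspo3, 15.7 in endothelial-like and 13.7 in cardiomyocyte-like cells, and the last 2 had overlapping intervals. An unnamed finer cluster with Tcf21, Ptn and Lsp1 among its leading genes (146 control and 99 H2CKO cells) had the highest level of all finer clusters, 81.2 CPM (70.2 to 93.5) in the control and 63.9 (50.4 to 80.0) in H2CKO. Tcf21 is a transcription factor of epicardial and fibroblast precursor cells.

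Between the libraries, Efnb1 was closest in epicardial-like cells, at 54.5 and 50.7 CPM, and endothelial-like cells had 107 and 132 UMIs, or 15.7 and 13.9 CPM (H2CKO over control 0.89, interval 0.68 to 1.16). The endothelial-like log2 ratio of −0.13 was 0.22 at equal depth per cell, 0.14 when centred on the median gene, 0.72 in the Emcn-led and −0.25 in the Stmn2-led finer cluster, so no direction is given for it. The cluster led by Rspo3 had 25.2 CPM (22.8 to 27.8) in the control and 17.0 (14.7 to 19.5) in H2CKO, a log2 ratio of −0.46 that was the lowest of Efnb1 in the 5 groups of cells. In the finer cluster led by Rspo3, Tcf21 was at 41.4 and 9.88 CPM, Hapln1 at 81.7 and 8.10 CPM and Meox1 at 14.7 and 6.22 CPM, while 6 ventricular genes summed to 12936 and 17197 CPM. The part of these shifts in that ratio was not tested. Mesenchymal-like cells had 35.96 CPM (33.6 to 38.4) in the control and 26.1 (23.2 to 29.2) in H2CKO, a log2 ratio of −0.40. The shifts of mesenchymal markers (5392 and 3091 CPM) and erythroid markers (13428 and 53945 CPM) in these cells moved with it, and their part in it was not tested. The difference was seen in the finer mesenchymal cluster led by Car3, Twist1, Msx1 and Col9a3, at 44.7 and 28.7 CPM (log2 −0.56), where GFP was 1294.6 CPM and Hand2 14.9 CPM in H2CKO. The finer mesenchymal cluster led by Inhba, Tgfbi and Meox1, with 73.8 CPM of GFP, had 24.6 and 22.3 CPM (log2 −0.12) with overlapping intervals. The difference between these 2 ratios was not tested. Inside the Car3-led cluster of H2CKO, cells with and without a GFP UMI had 26.2 and 31.5 CPM of Efnb1, a ratio of 0.83 (0.62 to 1.12). In H2CKO endothelial-like cells the split went the other way, at 15.6 and 9.12 CPM, a ratio of 1.71 (1.07 to 2.84) with 22 UMIs in the cells without GFP. Cardiomyocyte-like cells had 13.7 and 16.7 CPM, a log2 ratio of 0.22 that was −0.26 with the stricter filter of a minimum of 1500 genes and a mitochondrial share of 5% or less, which left 1242 control and 263 H2CKO cells in that class.

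Ephb4 encodes the receptor that is known to bind ephrin-B2 with preference. It was highest in endothelial-like cells of both libraries, at 62.1 CPM (56.3 to 68.3) and 51.9 CPM (47.4 to 56.7), followed by mesenchymal-like cells at 25.3 and 19.4 CPM and epicardial-like cells at 16.9 and 14.0 CPM. Cardiomyocyte-like cells had 7.13 and 7.47 CPM. The order of these 4 classes was the same in both libraries, although mesenchymal-like and epicardial-like cells had overlapping intervals in H2CKO. The cluster led by Rspo3 had 11.8 CPM (10.2 to 13.6) in the control and 6.51 (5.14 to 8.14) in H2CKO, a log2 ratio of −0.55 that was the lowest of Ephb4 in these 5 groups of cells. In the finer cluster led by Rspo3, Cdh5 was at 6.34 and 1.22 CPM, Hapln1 at 81.7 and 8.10 CPM and Emcn at 0.56 and 1.33 CPM. The part of these shifts in that ratio was not tested. The endothelial-like intervals of the libraries met only at their edges. The log2 ratio of −0.24 lay beside the median of all genes (−0.27) and became 0.03 when centred on that median or with the gene-length trend taken out. Summed with the mesenchymal-like and white blood cell-like cells, whose clusters also held at least 8 endothelial markers, it was 0.01. That sum mixed 400 control and 746 H2CKO endothelial-like cells with 1657 and 1071 mesenchymal-like ones, whose own log2 ratio was −0.31. It therefore gives no value for endothelial-like cells. In the finer clusters Ephb4 was at 54.3 and 55.5 CPM in the Emcn-led cluster (log2 0.03) and at 65.4 and 44.7 CPM in the Stmn2-led cluster (log2 −0.50, with intervals that did not overlap). Over all H2CKO endothelial-like cells, Ephb4 was at 55.7 CPM (50.4 to 61.5) with a GFP UMI and 40.6 CPM (33.0 to 49.5) without, a ratio of 1.37 (1.10 to 1.73). Cells of the Emcn-led cluster had 63.4 and 40.8 CPM, a ratio of 1.56 (1.22 to 2.0), at median depths of 11252 and 9826.5 UMIs. Those of the Stmn2-led cluster had 45.1 and 39.5 CPM, a ratio of 1.14 (0.58 to 2.56) with 9 UMIs in the cells without GFP. At 5000 UMIs per cell, 25.4% (21.1 to 30.1) of control and 20.7% (17.8 to 23.9) of H2CKO endothelial-like cells had an Ephb4 UMI, against 0.42% and 0.19% of erythroid-like cells.

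**Figure D3:**
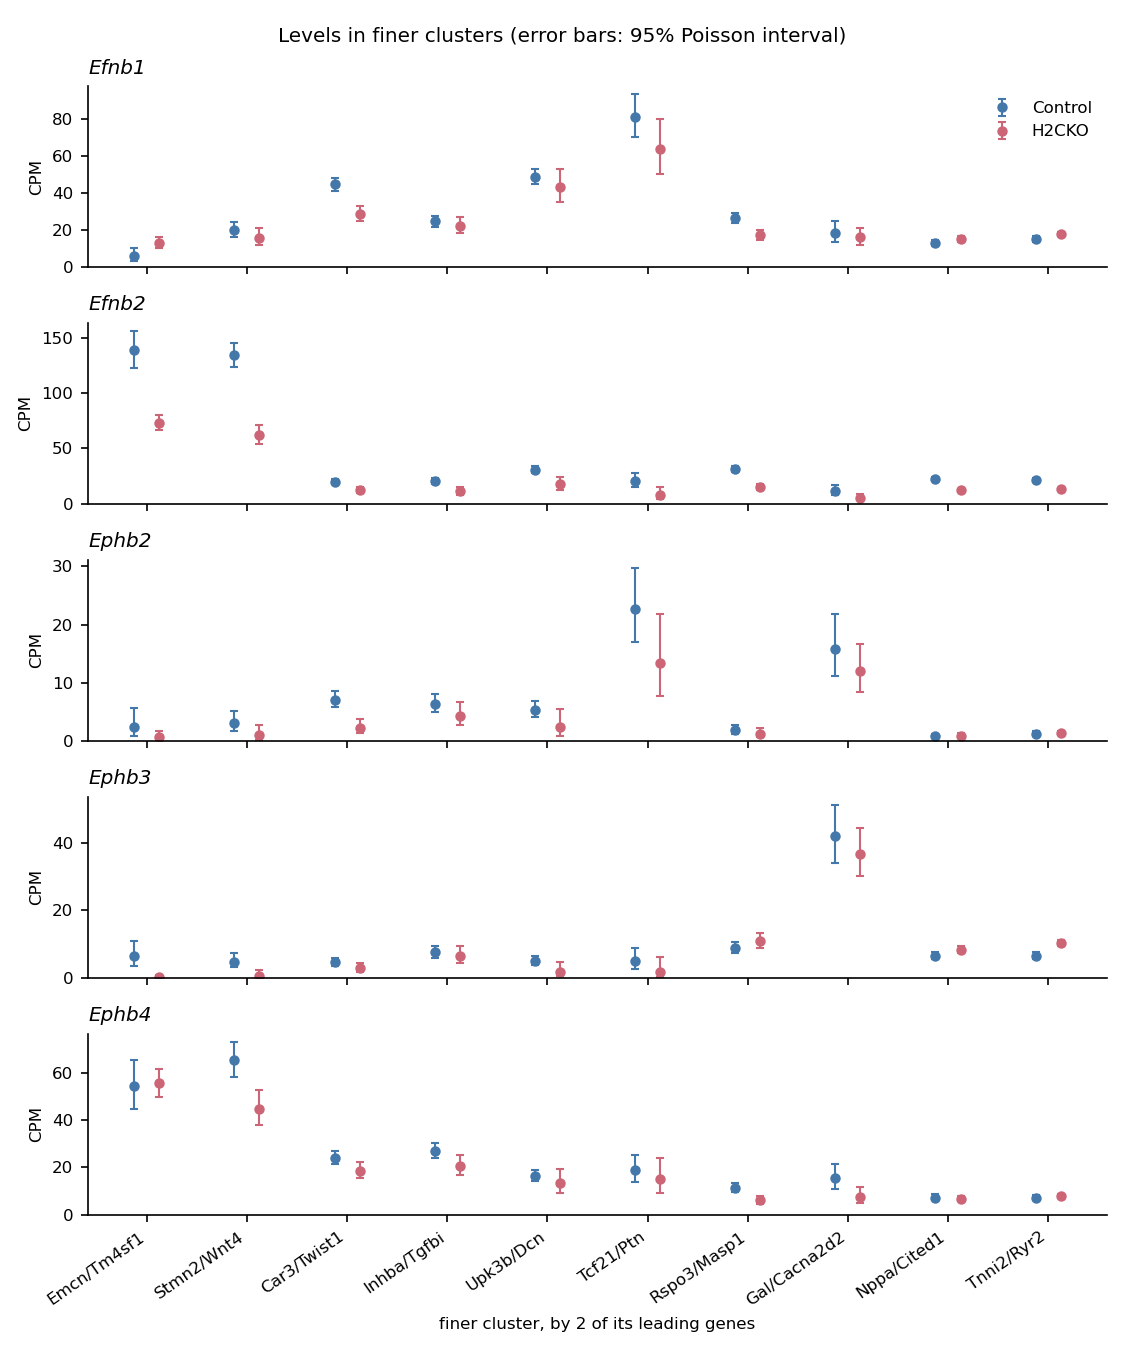
CPM of each member (vertical axes, 1 scale per gene) in 10 finer clusters labelled by 2 of their leading genes, for control (blue) and H2CKO (red) with 95% Poisson intervals. Efnb2 is lower in H2CKO in each of the 10, Ephb4 is level in the Emcn-led cluster (54.3 and 55.5 CPM), and Ephb3 stands out in the cluster led by Gal (41.9 and 36.7 CPM).

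Ephb3 encodes a receptor of low level in most heart cells. The cluster led by Rspo3 had the highest class level, 14.0 CPM (12.2 to 15.9) in the control and 17.3 (15.1 to 19.9) in H2CKO. In the control, cardiomyocyte-, mesenchymal-, endothelial- and epicardial-like cells followed at 6.11, 5.94, 5.27 and 5.04 CPM, each with an interval that overlapped the next. A finer cluster led by Gal, Cacna2d2 and Bmp2 (109 control and 180 H2CKO cells) held far more, 41.9 CPM (34.0 to 51.0) and 36.7 CPM (30.2 to 44.3). That cluster also held Bmp2 at 453 and 308 CPM and Tbx3 at 181 and 105 CPM, genes of the ligand BMP2 and of a transcription factor known from slow-conducting myocardium.

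Endothelial-like cells had 36 Ephb3 UMIs in the control, or 5.27 CPM (3.69 to 7.30), and 3 in H2CKO, or 0.32 CPM (0.065 to 0.93), although H2CKO held more endothelial-like cells. The control level was 16.6-fold that of H2CKO, with a counting interval of 5.25 to 84.4, and the log2 ratio was −0.95 because the 5 CPM added to both levels damps low genes (−2.25 with 1 CPM added). The H2CKO level was close to the 0.12 CPM of free RNA in erythroid-like cells of that library. Both finer endothelial clusters showed it, with 13 and 1 UMIs in the Emcn-led and 23 and 2 UMIs in the Stmn2-led cluster. Ephb3 did not reach the level needed to be tested among all genes, and after thinning 2.65% (1.28 to 4.81) of control cells and 0 of 690 H2CKO cells had a UMI, which by a limit of 3 counts allows a share of cells with a UMI of up to 0.435%. Its endothelial-like ratio minus the median ratio of the 3 other classes was −0.72, a value below which 3.20% of tested genes lay. The mesenchymal markers that were higher in control than in H2CKO endothelial-like cells (1372 and 376 CPM) moved with it, and their part in it was not tested. Control mesenchymal-like cells had an Ephb3 level of 5.94 CPM, close to that of the control endothelial-like cells themselves.

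Epicardial-like cells had 70 Ephb3 UMIs in the control and 6 in H2CKO, or 5.04 and 1.79 CPM (log2 ratio −0.56), a direction that turned in the deposited embedding's cells (0.13) and with classes from each cell's own markers (0.05). Mesenchymal-like cells had 5.94 and 4.35 CPM with overlapping intervals. Cardiomyocyte-like cells went the other way, with 338 and 661 UMIs, or 6.11 CPM (5.48 to 6.80) and 9.48 CPM (8.77 to 10.2), and its log2 ratio of 0.38 became −0.18 with the stricter filter on genes and mitochondrial UMIs. The finer cardiomyocyte cluster led by Nppa had 6.49 and 8.34 CPM and that led by Tnni2 and Ryr2 had 6.55 and 10.3 CPM.

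Ephb2 encodes the third receptor. In the control it was at 8.36 CPM (6.91 to 10.0) in epicardial-like and 6.84 CPM (5.84 to 7.96) in mesenchymal-like cells, which overlapped, then 3.76 in the cluster led by Rspo3 (3.98 in H2CKO), 2.93 in endothelial-like and 1.01 in cardiomyocyte-like cells. The finer clusters with most of it were the one with Tcf21 among its leading genes (22.7 CPM in the control, 17.1 to 29.7) and the one led by Gal and Bmp2 (15.8 CPM, 11.1 to 21.8). Endothelial-like cells had 20 and 7 UMIs, or 2.93 and 0.74 CPM, a 3.96-fold difference with a counting interval of 1.61 to 11.1. The mesenchymal markers in these cells (1372 and 376 CPM) moved with it, and their part in it was not tested. Mesenchymal-like cells had 167 and 35 UMIs, or 6.84 and 3.11 CPM, a 2.20-fold difference (1.52 to 3.27), beside the same shifts of mesenchymal and erythroid markers as for Efnb1, whose part in it was not tested. Ephb2 spans 188.8 kb, the longest of the 5, and its log2 ratios of −0.47 in endothelial-like and −0.55 in mesenchymal-like cells were 0.14 and 0.10 with the gene-length trend taken out. In H2CKO mesenchymal-like cells it was at 1.42 CPM with a GFP UMI and 4.12 CPM without, a ratio of 0.34 (0.12 to 0.85), but within the Car3-led cluster the values were 1.69 and 2.89 CPM with a ratio of 0.59 (0.17 to 1.84).

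**Figure D4:**
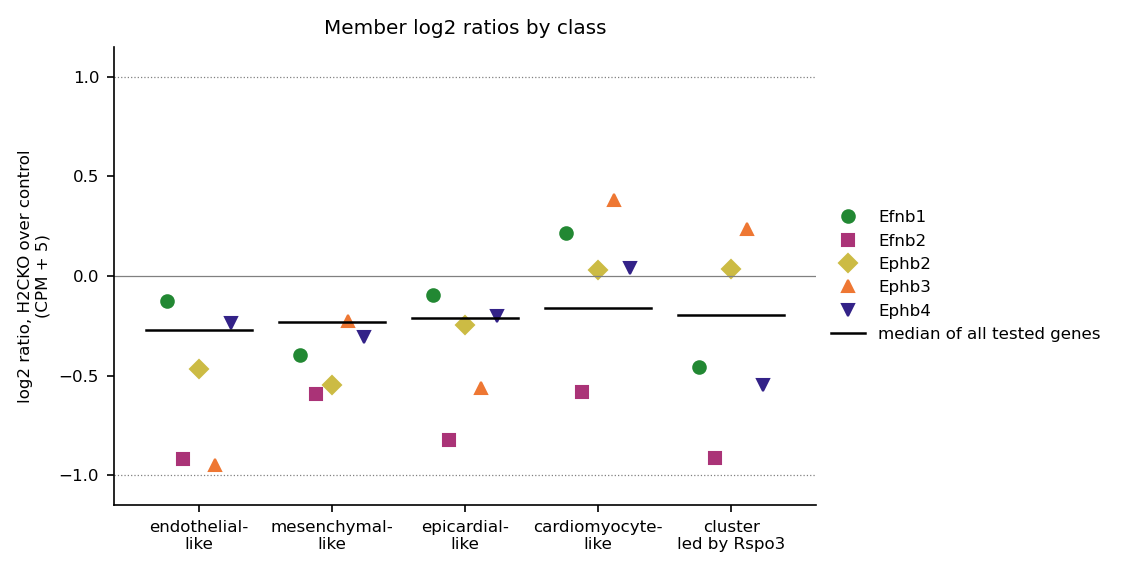
log2 ratio of H2CKO over control, with 5 CPM added to both, for the 5 members (points) in 5 groups of cells, with the median of all tested genes as a black bar and dotted lines at 2-fold. Efnb2 lies under the bar in all 5 groups, at −0.58 to −0.92, and the points of cardiomyocyte-like cells other than Efnb2 lie above 0, which under the stricter filter on genes and mitochondrial UMIs they did not.

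Of the 5 members, 2 were tested in endothelial-like cells (Efnb2 and Ephb4), since a gene had to reach 20 CPM and 20 UMIs in the higher library. 0 of these 2 were past 2-fold, where 7.89% of all 6525 tested genes were (0.797% higher and 7.1% lower in H2CKO). In mesenchymal-like cells 3 were tested (Efnb1, Efnb2 and Ephb4) and 0 were past 2-fold, beside 3.76% of all tested genes. Epicardial-like cells had 2 tested (Efnb1 and Efnb2), 0 past 2-fold and 6% of all tested genes past it. In cardiomyocyte-like cells Efnb2 alone was tested and was not past it, beside 0.947% of all, and the cluster led by Rspo3 likewise had 0 of its 2 tested members past it (Efnb1 and Efnb2), beside 2.56% of all. In the Emcn-led finer cluster, where 8.18% of tested genes were lower past 2-fold, Efnb2 was not. The share of tested genes with a lower ratio than Efnb2 was 9.7% in endothelial-like, 24.2% in mesenchymal-like, 11.9% in epicardial-like and 10.1% in cardiomyocyte-like cells, and 3.59% in the cluster led by Rspo3.

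Ligand and receptor were found in overlapping sets of endothelial-like cells. At 5000 UMIs per cell, 22.4% (16.3 to 29.4) of 170 control cells with an Efnb2 UMI had an Ephb4 UMI, and 27.9% (21.9 to 34.5) of the 208 cells without. In H2CKO the shares were 20.1% (14.7 to 26.4) of 194 cells and 20.97% (17.5 to 24.8) of 496. The intervals overlapped in both libraries, so at this depth cells with Efnb2 and cells with Ephb4 could not be separated.

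The 3 remaining genes of the family had other patterns. Efnb3, the third ephrin-B ligand, was highest in cardiomyocyte-like cells, at 80.4 CPM (78.0 to 82.8) in the control and 67.1 (65.2 to 69.0) in H2CKO, then in the cluster led by Rspo3 at 30.1 and 23.5 CPM. Endothelial-like cells had 27 and 25 UMIs of it. Ephb1 was rare, with 40 UMIs in control epicardial-like cells, 3 in their H2CKO counterparts, 4 and 25 in control and H2CKO cardiomyocyte-like cells and at most 7 in any other class and library. Ephb6, a receptor without kinase activity, was at most 3.67 CPM in any class. None of the 3 was tested in endothelial-like cells.

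Of the 14 ephrin-A and EphA genes, 4 were tested in endothelial-like cells, 0 rose, 1 fell and their median log2 ratio was −0.41, beside 0.797% of all tested genes higher past 2-fold, 7.1% lower and a median of −0.27. The gene that fell was Epha7, a receptor of ephrin-A ligands, with 45.7 CPM in the control and 7.40 in H2CKO (log2 −2.03). Its log2 ratio was −1.86 in the Emcn-led and −1.77 in the Stmn2-led finer cluster. Partners of forward signalling, which carry the receptor's signal to the cytoskeleton and to Ras, had 20 of 25 tested, 0 past 2-fold and a median of −0.53. They ranged from −0.999 for Nck2, an adaptor that binds the phosphorylated receptor (27.4 and 11.2 CPM), to 0.59 for Sh2d3c, a docking protein of Eph receptors (22.4 and 36.3 CPM). Arhgef15, a GTPase exchange factor of vascular cells that EphB signals engage, was at 37.2 and 35.2 CPM. Partners of reverse signalling and PDZ proteins of ephrin-B had 6 of 17 tested, 0 past 2-fold and a median of −0.41, with Dab2, an endocytic adaptor, highest (63.7 and 75.8 CPM, log2 0.23). Among those 6 tested genes the lowest was Tjp1, a tight-junction scaffold (177 and 107 CPM, log2 −0.71). Nck2 was counted with the forward partners only and is not among these 6. The values of the partners are over all endothelial-like cells, whose mix of finer clusters differed between the libraries, and the part of the mix in them was not tested.

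Among 11 proteases known to cut Eph receptors or ephrins, 9 were tested, 1 rose and 2 fell, and the median log2 ratio was −0.52, beside 0.797% higher, 7.1% lower and a median of −0.27 for all tested genes. Adam10, a sheddase of ephrins, fell from 222 to 75.3 CPM (log2 −1.50), and Adam19, a metalloprotease of the same family, fell from 73.4 to 24.0 CPM (log2 −1.43). Both were past 2-fold in each finer endothelial cluster as well, Adam10 at −1.64 and −1.12 and Adam19 at −1.57 and −1.26. Psen2, a catalytic subunit of gamma-secretase, rose from 27.2 to 76.3 CPM (log2 1.33), with 1.53 in the Emcn-led and 0.63 in the Stmn2-led cluster. Of 11 small GTPases of the cytoskeleton and their effectors, 8 were tested, 0 rose and 1 fell, with a median of −0.37. Rhob, a small GTPase, fell from 463 to 207 CPM (log2 −1.14), but its ratio was −0.61 in each of the finer clusters.

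**Figure D5:**
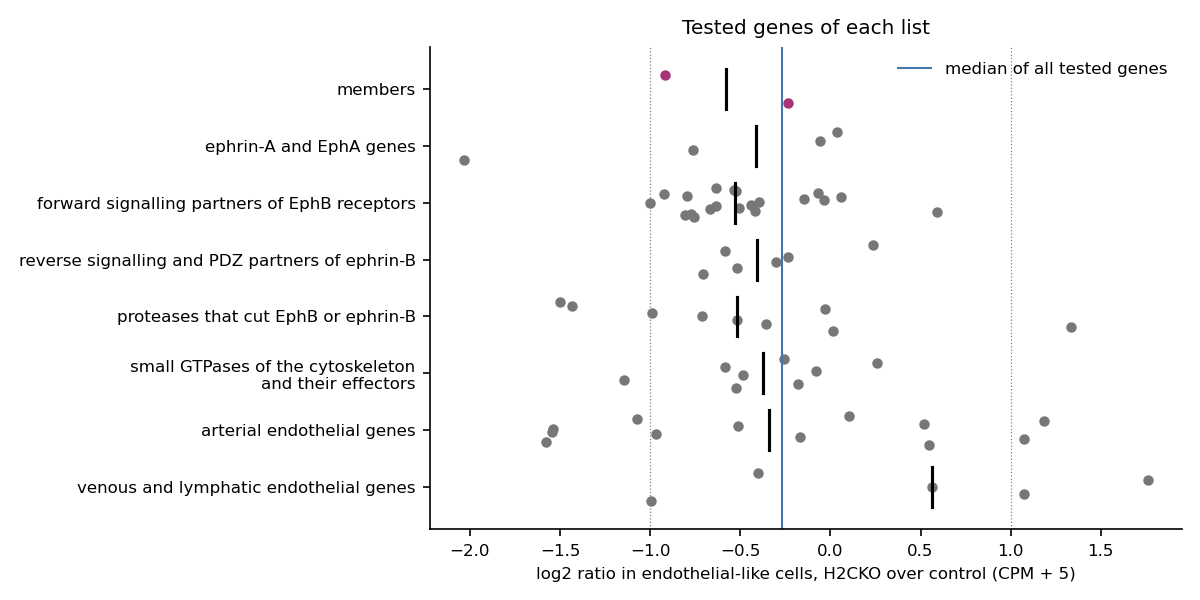
log2 ratios in endothelial-like cells of the tested genes of each list (points), with each list's median as a black bar, the median of all tested genes as a blue line and dotted lines at 2-fold. The members' points are Efnb2 at −0.92 and Ephb4 at −0.24, and the venous and lymphatic list is the one with its median above 0 (0.57).

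Since ephrin-B2 and EphB4 mark arterial and venous endothelium, genes of both kinds were described beside them. Of 15 arterial genes 12 were tested, 2 rose, 4 fell and the median log2 ratio was −0.34, where 0.797% of all tested genes were past 2-fold higher and 7.1% lower, with a median of −0.27. The transcription factor Sox17 rose from 32.5 to 73.9 CPM (log2 1.07) and the Notch ligand Dll4 from 12.01 to 33.6 CPM (1.18). The Notch target Hey2 fell from 98.8 to 30.7 CPM (−1.54), the Notch ligand Jag1 from 65.0 to 19.02 CPM (−1.54), the netrin receptor Unc5b from 59.2 to 16.5 CPM (−1.58) and the chemokine receptor Cxcr4 from 29.1 to 11.2 CPM (−1.08). Of 9 venous and lymphatic genes 5 were tested, 2 rose and 0 fell. The nuclear receptor Nr2f2 rose from 62.2 to 137 CPM (1.07) and the sialomucin Emcn from 137 to 477 CPM (1.76). Several of these genes differed in level between the finer clusters, whose mix differed between the libraries, and the part of the mix in the calls was not tested. Nr2f2 was at 159 and 196 CPM in the Emcn-led and at 21.1 and 20.9 CPM in the Stmn2-led cluster, and Hey2 at 9.30 and 2.39 CPM in the first and 137 and 86.3 CPM in the second. Of the 8 arterial or venous genes past 2-fold in all endothelial-like cells, Sox17 (2.07) was past it in the Emcn-led cluster, Unc5b (−1.50) lay beyond it there at a level too low to be tested, and 0 were past it in the Stmn2-led one. Efnb2 was at −0.88 and −1.05 in the 2 clusters.

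The genes whose levels followed each member most closely over 12 points (6 classes in each of 2 libraries) were found by Pearson's r among 8275 genes. They were Syde1, Tmem98 and Bex2 for Efnb1 (r 0.98 for each), Caskin2, Cemip2 and Hspg2 for Efnb2 (0.98, 0.98 and 0.97), Mrc2, Col6a1 and Bicc1 for Ephb2 (0.99, 0.98 and 0.97), Hspa2, Tbx5 and Sulf2 for Ephb3 (0.95, 0.94 and 0.93) and Rgs3, Apex2 and Dennd5b for Ephb4 (0.98 for each). The points share 2 libraries and their depths, and with so few of them these values describe likeness only.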

How the data were processed

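Whole hearts of E11.5 mice were measured in 2 single-cell libraries (10x Genomics 3′ chemistry, per the labels' protocols), 1 per genotype. The authors deposited UMI counts, 1 column per barcode and 1 line per Ensembl gene, with GFP and Tomato added. Cell Ranger 5.0.1, Seurat 4 and GRCm38.p6 are named in the submitters' processing notes, without their roles. A subset of barcodes also has 2 embedding coordinates, deposited as a score with no unit, and served only to define 1 alternative set of cells. Identifiers of 22285 of the 22401 features had a symbol.

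The matrices held 14114 control and 13885 H2CKO barcodes with 195825720 and 201477256 UMIs, and no barcode had under 500 UMIs. A cell needed 500 genes or more and a mitochondrial share of 10% or less, which 9841 and 12141 cells met. Scrublet (scanpy 1.11.5) marked 920 control and 0 H2CKO cells at its automatic threshold, so the 6% of cells with the highest scores were left out of each library (590 and 728). Variable genes (2000) excluded ephrin and Eph genes, haemoglobins, mitochondrial and Y-linked genes, Xist, Tsix, Hand2 and the reporters. After 30 principal components (scikit-learn 1.9.0), each cell was joined to 15 neighbours from each library and clustered (leidenalg 0.10.2, resolution 1, with 2 for the finer clusters). The 13 clusters were named from 13 marker lists. A name needed the highest median log2 fold of the markers, at least 3 of them in 10% of cells, and, among the 10 top genes, at least as many own markers as those of any other class. The cardiomyocyte-like class includes a shallow cluster of 1204 control and 222 H2CKO cells.

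UMIs were summed per class and library, divided by all UMIs there (CPM), and compared as log2 of CPM plus 5. A gene was tested at 20 CPM and 20 UMIs or more in the higher library, and past 2-fold at a log2 ratio of 1 or more in size. There being 1 library per group, neither p-values nor standard errors are given. All 95% intervals are exact: Poisson (levels), Clopper-Pearson (shares) or conditional on the summed count (ratios), from scipy 1.17.1. They cover counting error only, as does the limit of 3 counts for a share of 0. Levels were not compared between genes, since 3′ counts do not give them a common scale.

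The members and the gene lists were chosen with earlier results of these data known. Of each list, the tested genes past 2-fold in endothelial-like cells are named, at most 6 per direction, and per member the 3 genes most alike over classes and libraries. Other genes given by name were chosen after their values were seen. Some genes of the lists and of the clusters' leading genes are not reported here. The alternatives changed the cell filter, doublets, clustering, class naming, depth, centring, gene-length trend, pseudocount and level filter. The 2 finer endothelial clusters on their own were added after seeing the data.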

Additional observations from a re-analysis of the deposited data

Results flagged for a closer look

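Efnb1 had ratios of opposite sign in 2 classes, each with intervals of the libraries that did not overlap. Its log2 ratio of H2CKO over control was −0.40 in mesenchymal-like cells and 0.22 in cardiomyocyte-like cells. The difference between the classes was not tested, since each group has 1 library. With the stricter filter (1500 genes or more, 5% mitochondrial UMIs or less), the cardiomyocyte-like value was −0.26.

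Ephb3 likewise had log2 ratios of −0.95 in endothelial-like cells, −0.56 in epicardial-like cells and 0.38 in cardiomyocyte-like cells, and the difference was not tested. The cardiomyocyte-like value was −0.18 under the same filter, which left 263 H2CKO cells in that class, and the epicardial-like value rests on 6 UMIs in H2CKO.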

How the results depend on the processing

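Over the planned and added alternatives, log2 ratios of the members in the 4 main classes moved by no more than their counting interval in 182 of 240 cases and had the same sign in 212. Efnb2 was below 0 in each of them. In endothelial-like cells, centring on the median gene gave −0.65 for Efnb2, −0.20 for Ephb2, −0.68 for Ephb3 and 0.031 for Ephb4, with 115 genes past 2-fold higher and 159 lower instead of 52 and 463. Taking out the gene-length trend gave −0.45, 0.14, −0.74 and 0.027 for the same genes, with 103 higher and 132 lower. Thinning gave 0.22 for Efnb1 and −1.04 for Ephb3, and a pseudocount of 1 CPM gave −1.18 for Ephb2, −2.25 for Ephb3 and 707 genes lower. The filter of 100 CPM left 22 higher and 154 lower, the stricter cell filter gave −1.09 for Ephb3, and classes from each cell's own markers gave −0.76 for Efnb2. Summing the 3 clusters with at least 8 endothelial markers, which adds mesenchymal-like and white blood cell-like cells, gave −0.53 for Efnb1, −0.26 for Efnb2, −0.63 for Ephb2, −0.53 for Ephb3 and 0.0058 for Ephb4. The Emcn-led finer cluster alone gave 0.72 for Efnb1, −1.14 for Ephb3, 0.030 for Ephb4 and 92 genes higher, and the Stmn2-led one −0.50 for Ephb4 and 197 genes lower. Without a filter on level, 73 genes were higher and 543 lower. Other causes were not tested.

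No paired analysis was possible because each group has 1 library. Depth limits Ephb2 and Ephb3 most, with 7 and 3 UMIs in H2CKO endothelial-like cells.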

Other observations

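Some ephrin-A and EphA genes below the level needed for testing also differed between the endothelial-like cells of the 2 libraries, and were picked out after their values were seen. Epha3, an ephrin-A receptor known from cushion mesenchyme, had 35 UMIs in the control and 1 in H2CKO, or 5.13 CPM (3.57 to 7.13) and 0.11 CPM. The 16 mesenchymal markers in these cells, summing to 1372 and 376 CPM, moved with it, and their part in it was not tested. Epha1 had 11 and 2 UMIs. Over all endothelial-like cells the ligand Efna1 was at 69.1 CPM (63.0 to 75.6) and 71.1 CPM (65.8 to 76.7), and Epha2 was at 11.7 and 13.3 CPM, both with overlapping intervals. The mix of finer clusters differed between the libraries, so these values do not show that either gene was level within each cluster.

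The Tomato reporter was lower in H2CKO also in cardiomyocyte-like cells, where GFP was level. Tomato was at 15.8 CPM in the control and 4.20 in H2CKO there, and GFP at 9.19 and 9.05 CPM.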
